A study of Sus scrofa with 12 samples.

Results

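Transcript levels of genes of myostatin, activin and TGF-beta signalling were described in the Biceps femoris, a ham muscle, of newborn pigs. The members were the genes of a 10-symbol list covering muscle growth inhibitors, their antagonists, their receptors and the SMAD proteins, and every identifier carrying one of these symbols was kept. A total of 8 symbols matched 1 identifier each, out of 22861 genes in the table. These were MSTN, TGFB1, FST, ACVR2A, ACVR2B, TGFBR2, SMAD3 and SMAD7. The other members, INHBA (the activin A subunit) and FSTL1 (a follistatin-like glycoprotein), matched no identifier through the gene names used and were not analysed here. All animals were male piglets on postnatal day 1, born to pure Iberian sows of the same farm. The pure Iberian group (IB, n = 6) was sired by Iberian boars, and the crossbred group (IBxDU, n = 5) by Duroc boars. The labels list 1 further IBxDU animal, which was not analysed here. The study took up to 1 pair of piglets from a litter, and the litter of each animal is not given in the sources used here. The sequenced animals represented all litters, and the IB animals outnumbered the Iberian-sired litters, so at least 1 pair of IB animals were littermates. The p-values measure the spread between these animals, with littermates counted as independent. The comparison addresses how the paternal breed relates to the muscle transcriptome at birth.

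Myostatin is a secreted member of the TGF-beta family that restrains muscle growth, and animals that lack it are heavily muscled. Myostatin and activins bind the type II receptors ACVR2A and ACVR2B, whereas TGF-beta binds TGFBR2. In each case a type I receptor is recruited and phosphorylates SMAD2 and SMAD3, which enter the nucleus with SMAD4 and regulate transcription. Follistatin, the product of FST, captures myostatin and activins outside the cell. SMAD7 is induced by the pathway and blocks its receptors.

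Levels are given in RPKM, read numbers divided by exon length and by the mapped total of the animal, so that genes of different length can be set side by side. Whole reads recovered from the steps between low values summed to between 8640213 and 15140673 exon reads per animal, a minimum that leaves out 167 abundant genes. The members rested on 15 (MSTN in IBxDU-427) to 2548 (SMAD3 in IB-503) reads per animal. Muscle fibre markers were abundant in every animal, with 4 of 8 listed markers in the table and summed levels of 32870 to 40450 RPKM in IB and 22850 to 52090 RPKM in IBxDU. IBxDU-402 stood apart in cells other than muscle fibres. It held the highest summed markers of fibroblasts (5072 RPKM, against 526 to 2179 in the others), macrophages (165 against 13.4 to 61.5) and T and B cells (2.56 against 0.0517 to 0.457), and the highest level of 3 members. After rescaling the animals by the upper quartile or the median of ratios, the median log2 difference of all tested genes moved from 0.13 to 0.01, and directions below are read against that shift. The factor an animal was divided by was largest in IBxDU-429 (1.22 and 1.24). Levels of single animals are given before rescaling.

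TGFBR2, the type II receptor of TGF-beta, had the highest mean level, 17.8 ± 4.96 RPKM (SD, n = 11). It was followed by SMAD3 with 9.92, TGFB1 with 6.75, FST with 6.21, SMAD7 with 4.43, ACVR2B with 3.47, ACVR2A with 3.35 and MSTN with 3.24 RPKM. Neighbours in this order were compared in the same 11 animals that set the order, so the tests describe it and are not independent of it. TGFBR2 exceeded SMAD3 in 10 of 11 animals (two-sided exact sign-flip permutation test of the paired log2 ratios, p = 0.00195, adjusted over 7 neighbouring pairs p = 0.0136). TGFBR2 rested on 378 to 719 reads per animal and SMAD3 on 718 to 2548, so this order depends on the exon lengths. Lengths are the same in every animal, so these tests do not cover errors in them. The same limit holds for the ratios between members below, and the lengths were not checked. SMAD3 exceeded TGFB1 in 8 of 11 animals, and this pair did not pass the threshold after adjustment (exact p = 0.0176, adjusted p = 0.0616). The other 5 neighbouring pairs were not separated beyond their spread, with adjusted exact permutation p between 0.25 and 0.977. ACVR2B and ACVR2A, which bind the same ligands, had nearly the same mean, and ACVR2B was the higher of them in 6 of 11 animals.

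**Figure D1:**
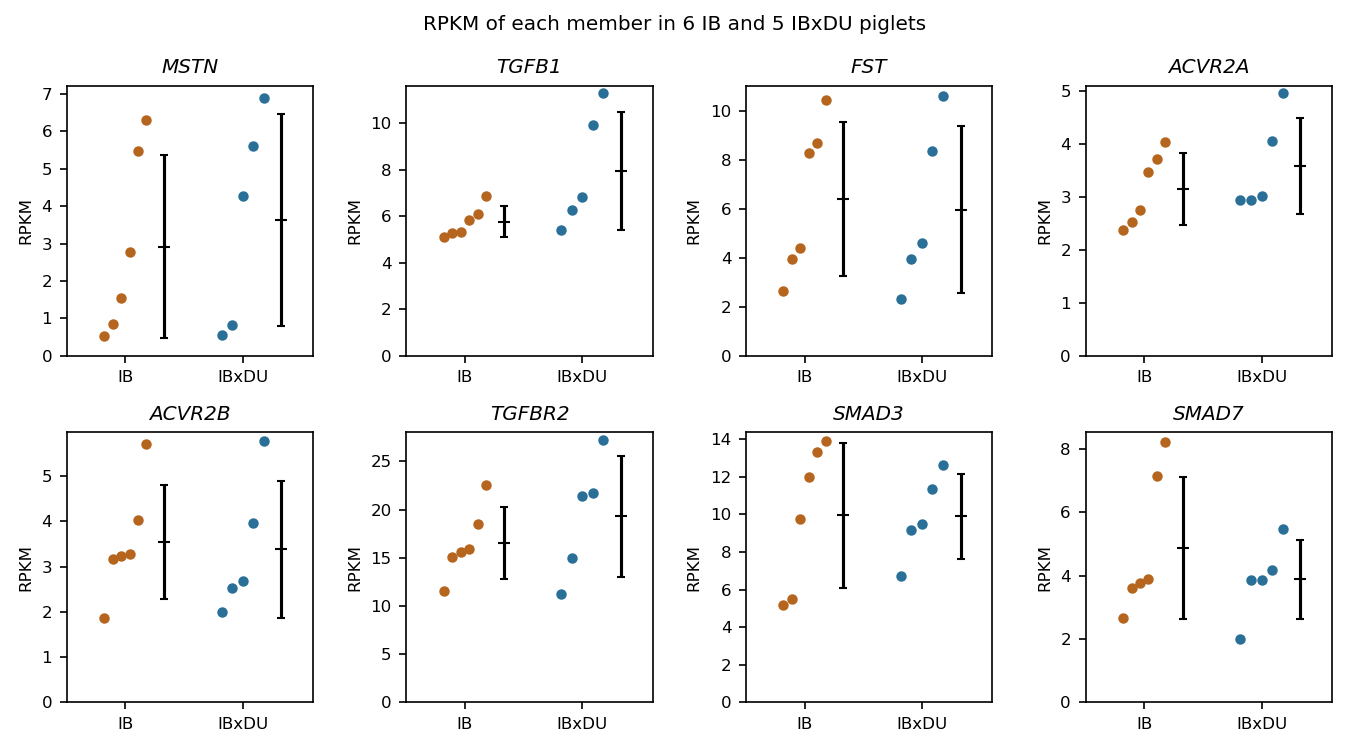
RPKM of the 8 members, 1 panel per gene on a linear axis from 0, with 1 point per piglet in order of level within IB and IBxDU and a black line for the mean ± SD of each genetic type. MSTN spans 0.539 to 6.89 RPKM with low and high animals in both genetic types, whereas TGFBR2 stays between 11.2 and 27.2 RPKM.

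MSTN, the gene of myostatin, was the most variable member. In IB its level ranged from 0.539 (IB-503) through a median of 2.17 to 6.31 RPKM (IB-330). The IBxDU levels were 5.61 in IBxDU-402, 4.27 in IBxDU-412, 6.89 in IBxDU-426, 0.569 in IBxDU-427 and 0.839 RPKM in IBxDU-429. Each genetic type thus held animals under 1 and animals above 4 RPKM, and the groups overlapped over almost the whole range.

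The lowest and the highest MSTN levels differed 12.8-fold. Counting error did not bridge that distance. The 22 reads of IB-503 allow 0.338 to 0.816 RPKM and the 287 reads of IBxDU-426 allow 6.12 to 7.73 RPKM (exact Poisson 95% intervals, which cover counting error only). The SD of log2(RPKM + 0.1) within genetic types was 1.46, larger than in 98.8% of the 11875 tested genes. The mean was 2.92 ± 2.45 RPKM in IB (SD, n = 6) and 3.63 ± 2.83 in IBxDU (SD, n = 5), a log2 difference of 0.24 (limma 95% interval -1.32 to 1.80, adjusted p = 0.93; exact permutation p = 0.781). The interval leaves room for a sizeable difference in either direction. The sign of the difference turned without IB-503, IBxDU-402 or IBxDU-426, with values between -0.12 and -0.05.

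TGFB1 encodes TGF-beta 1, a growth factor held in the matrix in a latent form that drives fibroblasts to make collagen. Its levels in IB lay close together, from 5.10 through a median of 5.59 to 6.89 RPKM. In IBxDU they were 11.3 in IBxDU-402, 6.25 in IBxDU-412, 5.39 in IBxDU-426, 6.82 in IBxDU-427 and 9.91 RPKM in IBxDU-429. IBxDU-402 and IBxDU-429 lay above every IB animal, and the other 3 lay inside the IB range.

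TGFB1 averaged 5.76 ± 0.666 RPKM in IB (SD, n = 6) and 7.93 ± 2.53 in IBxDU (SD, n = 5). The log2 difference of 0.41 ± 0.21 (SE) had the smallest p of the members and did not pass the threshold (limma adjusted p = 0.614, unadjusted 0.0699; exact permutation p = 0.0584). IBxDU-402 and IBxDU-429 also had the highest endothelial marker sums, 134 and 118 RPKM against 71.0 to 112 in the other animals. Divided by either rescaling factor, the sum of IBxDU-429 fell below that of IB-330. Over all animals TGFB1 had an r of 0.734 with the endothelial, 0.723 with the fibroblast and 0.704 with the adipocyte sum. None of these passed the threshold (permutation p adjusted over 72 relations = 0.0639, 0.0702 and 0.0759). Within IB the r values were 0.258, 0.723 and 0.752 (exact permutation p = 0.637, 0.103 and 0.0792). The part of these cells in the TGFB1 level was not tested. Of the 10 marker lists, that of pericytes and smooth muscle differed most between the genetic types by its exact p. With 3 of 5 markers in the table, its sum was 38.0 to 76.2 RPKM in IB and 60.3 to 94.8 in IBxDU (log2 difference 0.60, exact permutation p = 0.0173, adjusted over 10 lists p = 0.173), and CNN1 and PDGFRB reached an unadjusted limma p under 0.05. IBxDU-402 (94.8), IBxDU-426 (90.6) and IBxDU-429 (79.7 RPKM) lay above every IB animal in this sum. After either rescaling, IBxDU-429 fell below IB-431 in it. No member's correlation with this sum passed the adjusted threshold, and that of TGFB1 had an r of 0.508 (permutation p = 0.113, adjusted p = 0.33). The part of these cells in any member's level was not tested. In bulk muscle, more cells of a type and more RNA per cell cannot be told apart. Leaving out 1 animal at a time gave log2 differences of 0.27 to 0.53. The TGFB1 difference was 0.285 with upper quartile and 0.286 with median-of-ratios scaling (limma adjusted p = 0.748 and 0.742). Without IBxDU-426 the unadjusted limma p of TGFB1 fell below 0.05, with an adjusted p of 0.626.

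FST, the gene of follistatin, ranged in IB from 2.64 through a median of 6.34 to 10.5 RPKM. In IBxDU its level was 10.6 in IBxDU-402, 8.39 in IBxDU-412, 2.32 in IBxDU-426, 3.95 in IBxDU-427 and 4.63 RPKM in IBxDU-429. IBxDU therefore held both the highest and the lowest animal. FST varied 4.57-fold over all animals, with a within-group SD larger than in 89.6% of tested genes. Its log2 difference was -0.13 (limma 95% interval -1.03 to 0.77, adjusted p = 0.931; exact permutation p = 0.803), and the sign turned without IB-323 or IBxDU-426.

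The ratio of FST to MSTN sets the antagonist against its ligand at the transcript level. FST was above MSTN in 10 of 11 animals, by 1.31- to 6.72-fold in IB and by 1.89- to 6.94-fold in 4 of the IBxDU animals. The exception was IBxDU-426, where the ratio was 0.337, with the lowest FST and the highest MSTN of all animals. The ratio did not separate the genetic types (mean log2 difference -0.38, exact permutation p = 0.673, adjusted over 4 ratios p = 0.673). Over all 11 animals, FST and MSTN had a Pearson r of 0.435 (permutation p = 0.177, adjusted over 28 pairs p = 0.619) and a Spearman rho of 0.309 (permutation p = 0.354, adjusted p = 0.799). Without the animals farthest from the MSTN median, IB-503 and IBxDU-427, r was 0.185. Within IB it was 0.708 (exact permutation p = 0.14), and IBxDU held too few animals for a value of its own.

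Of the receptors, ACVR2A was the steadiest. In IB it ranged from 2.38 through a median of 3.12 to 4.04 RPKM, and in IBxDU it was 2.94 in IBxDU-402, 4.07 in IBxDU-412, 3.02 in IBxDU-426, 2.95 in IBxDU-427 and 4.97 RPKM in IBxDU-429. Its log2 difference was 0.18 (limma 95% interval -0.28 to 0.64, adjusted p = 0.82; exact permutation p = 0.366), and 0.05 without IBxDU-429. Before rescaling IBxDU-412 and IBxDU-429 lay above all IB animals, the former by less than its counting error. With either rescaling (factors 1.22 and 1.24 in IBxDU-429, 0.903 and 0.919 in IB-345), both lay below IB-345.

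ACVR2B, the type II receptor with the higher affinity for myostatin, ranged in IB from 1.87 through a median of 3.25 to 5.70 RPKM. Its IBxDU levels were 2.68 in IBxDU-402, 5.76 in IBxDU-412, 1.99 in IBxDU-426, 3.96 in IBxDU-427 and 2.53 RPKM in IBxDU-429. The groups covered nearly the same range, and the log2 difference was -0.09 (limma 95% interval -0.74 to 0.56, adjusted p = 0.937; exact permutation p = 0.794). Its sign turned without IB-431 or IBxDU-426. The ratio of ACVR2B to ACVR2A was 0.784 to 1.41 in IB and 0.510 to 1.42 in IBxDU, lowest in IBxDU-429 (difference between the genetic types, exact permutation p = 0.37, adjusted p = 0.493).

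TGFBR2 ranged in IB from 11.5 through a median of 15.8 to 22.5 RPKM. The IBxDU animals held 27.2 in IBxDU-402, 21.7 in IBxDU-412, 11.2 in IBxDU-426, 15.0 in IBxDU-427 and 21.4 RPKM in IBxDU-429. As with FST, IBxDU-402 was the highest and IBxDU-426 the lowest animal. The log2 difference was 0.19 (limma 95% interval -0.32 to 0.69, adjusted p = 0.829; exact permutation p = 0.463). It was 0.05 without IBxDU-402. TGFBR2 exceeded its ligand TGFB1 in 11 of 11 animals, by 2.18- to 4.22-fold in IB and by 2.08- to 3.47-fold in IBxDU. The difference of this ratio between the genetic types did not pass the threshold (exact permutation p = 0.273, adjusted p = 0.493).

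SMAD3, the transcription factor activated by these receptors, ranged in IB from 5.21 through a median of 10.9 to 13.9 RPKM. The IBxDU values were 9.19 in IBxDU-402, 11.4 in IBxDU-412, 9.50 in IBxDU-426, 6.74 in IBxDU-427 and 12.6 RPKM in IBxDU-429. Every IBxDU animal lay inside the IB range. The means were 9.94 ± 3.85 RPKM in IB (SD, n = 6) and 9.89 ± 2.25 in IBxDU (SD, n = 5), with a log2 difference of 0.07 (limma adjusted p = 0.952; exact permutation p = 0.851) that became negative after either rescaling and without IB-323, IB-345 or IBxDU-429.

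SMAD7, the inhibitory SMAD, ranged in IB from 2.66 through a median of 3.83 to 8.21 RPKM. IB-431 and IB-504, with 8.21 and 7.15 RPKM, lay above all other animals. Among IBxDU animals SMAD7 was at 2.01 in IBxDU-402, 4.18 in IBxDU-412, 3.88 in IBxDU-426, 3.87 in IBxDU-427 and 5.48 RPKM in IBxDU-429. IBxDU-402, the highest animal for TGFB1, FST and TGFBR2, was the lowest for SMAD7. The log2 difference was -0.28 (limma 95% interval -0.95 to 0.40, adjusted p = 0.812; exact permutation p = 0.457), and -0.06 without IBxDU-402. SMAD3 exceeded SMAD7 in 11 of 11 animals, by 1.38- to 3.70-fold in IB and by 1.74- to 4.58-fold in IBxDU. This ratio did not separate the genetic types past the threshold (exact permutation p = 0.275, adjusted p = 0.493).

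No member passed an adjusted p of 0.05 between the genetic types (limma, 0 of 8), beside 0.0168% of all 11875 tested genes. At an unadjusted limma p under 0.05 the count of members was also 0, beside 8.03% of all tested genes. By the thresholds of the study, an unadjusted p up to 0.01 together with at least a 1.5-fold difference, 0 members were higher in IBxDU and 0 in IB, beside 0.985% and 0.522% of all tested genes. Here these thresholds were applied to the limma fit of RPKM, whereas the study used a test on counts based on edgeR. The study reported more genes higher in IB than in IBxDU, the reverse of these shares. No member had groups without overlap, beside 1.04% of all tested genes. A total of 5 members had the higher value in IBxDU and 3 in IB, beside 66.9% of all tested genes with the higher value in IBxDU, and their median log2 difference of 0.12 lay beside 0.13 for all tested genes. With either rescaling the members divided 4 and 4. The 95% intervals bound the differences unevenly. That of TGFB1 ran from -0.04 to 0.85, and that of MSTN was the widest.

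**Figure D2:**
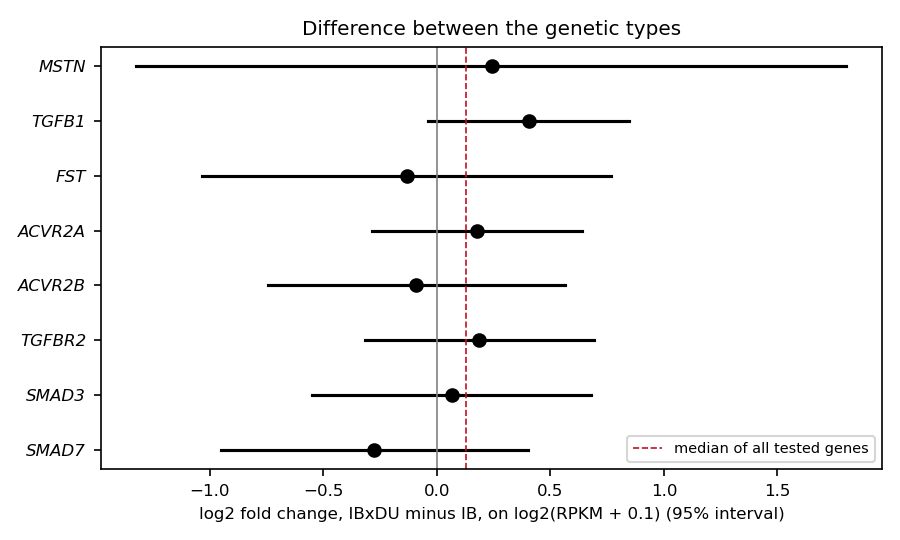
Log2 difference, IBxDU minus IB, of each member on the log2(RPKM + 0.1) scale, with limma 95% intervals as lines and the median of all tested genes for comparison. Every interval crosses 0, that of MSTN is the widest (-1.32 to 1.80) and that of TGFB1 reaches least below 0 (-0.04).

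Among the 28 pairs of members, FST and TGFBR2 varied together most closely over the 11 animals. Pearson's r was 0.81 (permutation p = 0.00362, adjusted p = 0.101) and Spearman's rho 0.89 (permutation p = 0.00052, adjusted p = 0.0146), so the ranks passed the threshold and the linear measure did not. Without the animals farthest from the FST median, IB-323 and IBxDU-402, r was 0.894. Within IB r was 0.774 (exact permutation p = 0.0653), and after centring each genetic type on its mean it was 0.855. Leaving out 1 animal at a time gave a rho of 0.855 to 0.976.

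TGFB1 and TGFBR2 had an r of 0.672 (permutation p = 0.0208, adjusted p = 0.291) and a rho of 0.527 (permutation p = 0.1, adjusted p = 0.711). That relation rested on IBxDU-402 and IBxDU-429, without which r was 0.335, and within IB it was 0.279 (exact permutation p = 0.594). SMAD3 and SMAD7 had an r of 0.552 (permutation p = 0.0773, adjusted p = 0.484) and a rho of 0.645 (permutation p = 0.0372, adjusted p = 0.521). Without IB-323 and IB-345 their r was 0.545, and within IB 0.678 (exact permutation p = 0.133). No pair apart from FST and TGFBR2 passed the adjusted threshold by either measure.

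**Figure D3:**
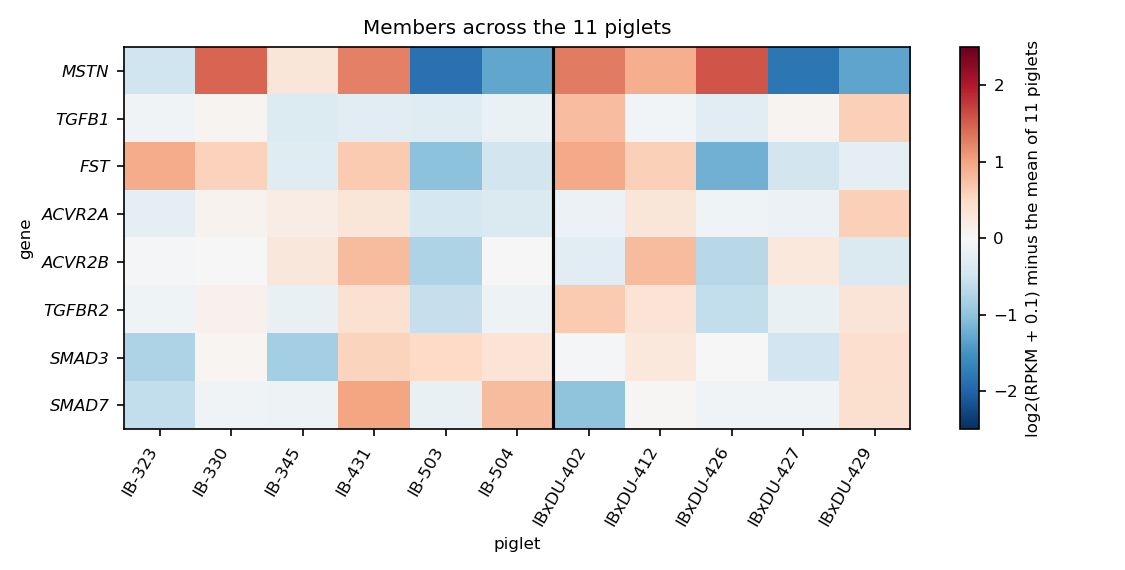
Log2(RPKM + 0.1) of each member in each piglet, relative to that member's mean over the 11 animals, as a colour scale. IBxDU-402 is high for TGFB1, FST and TGFBR2 and low for SMAD7, and IBxDU-426 is high for MSTN and low for FST and TGFBR2.

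The animals with much FST and TGFBR2 also had high summed fibroblast markers. Of 8 listed fibroblast markers, which include collagen genes, 5 were in the table, and PDGFRA among these 5 was listed at 0 in every animal. The sum was not broken down by marker. The sum ranged from 792 to 2179 RPKM in IB and from 526 (IBxDU-426) to 5072 RPKM (IBxDU-402) in IBxDU, with no difference between genetic types past the threshold (exact permutation p = 0.799, adjusted over 10 lists p = 0.888). FST followed the fibroblast sum with an r of 0.873 (permutation p = 0.00071, adjusted over 72 relations p = 0.0146) and a rho of 0.882 (permutation p = 0.00081, adjusted p = 0.0448). Without IBxDU-402 and IBxDU-426 r was 0.843, and within IB 0.944 (exact permutation p = 0.0319).

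TGFBR2 followed the same sum with an r of 0.873 (permutation p = 0.00059, adjusted p = 0.0146) and a rho of 0.827 (permutation p = 0.00249, adjusted p = 0.0448). Without IBxDU-402 and IBxDU-426 r was 0.737, and within IB 0.704 (exact permutation p = 0.118). With the sum of 4 endothelial markers TGFBR2 had an r of 0.871 (permutation p = 0.00055, adjusted p = 0.0146) and a rho of 0.809 (permutation p = 0.00379, adjusted p = 0.0546). Without IB-503 and IBxDU-402 that r was 0.764, and within IB 0.757 (exact permutation p = 0.0764).

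Of the 72 relations between 8 members and 9 marker lists, 6 passed the adjusted threshold by Pearson's r and 4 by Spearman's rho, 3 of them by both, and all of these were relations of FST or TGFBR2. FST with 4 red cell markers passed by both (r = 0.861, permutation p = 0.00081, adjusted p = 0.0146, and rho = 0.855, permutation p = 0.00135, adjusted p = 0.0448). Without IB-503 and IBxDU-402 that r was 0.796. Within IB it was 0.958 (exact permutation p = 0.00139), beside 0.944 for FST with the fibroblast sum, so the relation of FST was not particular to fibroblast markers. FST and TGFBR2 with 2 adipocyte markers passed by r (0.823 and 0.793, adjusted permutation p = 0.0413 and 0.0458) and not by rho (0.791 and 0.736, adjusted permutation p = 0.0564 and 0.0984). FST with 5 macrophage markers passed by rho (0.836, adjusted permutation p = 0.0448) and not by r (0.753, adjusted permutation p = 0.0521). The parts of these cell types in the FST and TGFBR2 levels were not tested. These relations were chosen after the data were seen.

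**Figure D4:**
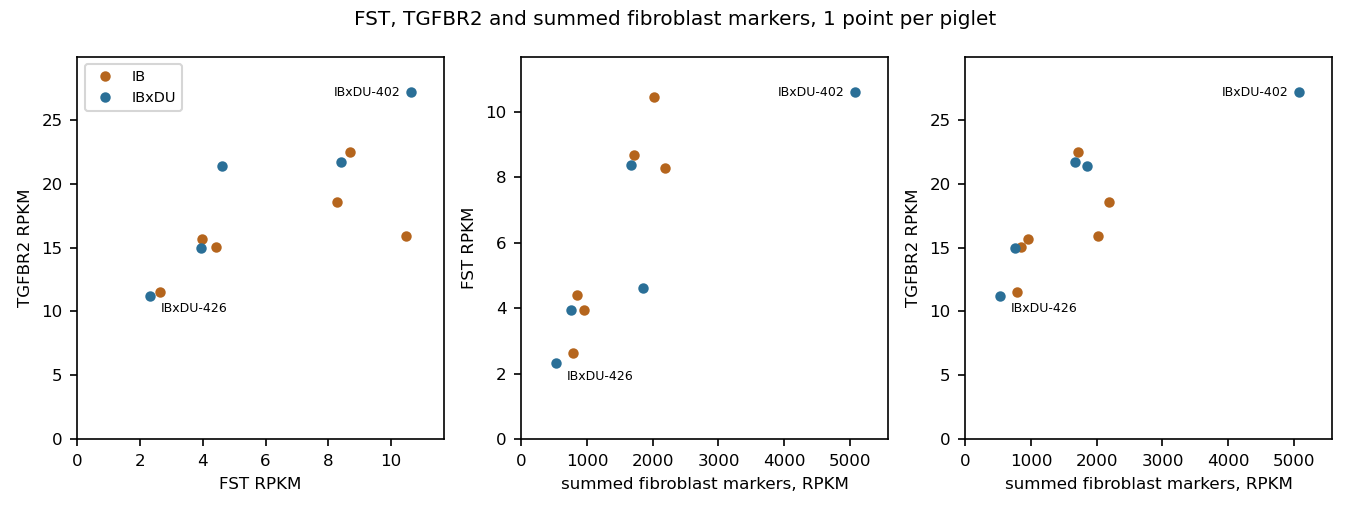
FST against TGFBR2, and each of them against the summed fibroblast markers, all in RPKM on linear axes with 1 point per piglet. IBxDU-426 is lowest on every axis and IBxDU-402 highest, at 10.6 RPKM for FST, 27.2 for TGFBR2 and 5072 for the markers, and both genetic types lie along the same spread.

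The other genes of the pathway were taken from 6 lists with 115 symbols, of which 82 were in the table and 71 were tested. No gene of these lists passed an adjusted p of 0.05. At an unadjusted limma p under 0.05, 2 were higher in IBxDU, beside 6% of all tested genes, and 3 were higher in IB, beside 2.02%. Of all tested genes at that p, 74.8% were higher in IBxDU, and 40.8% after upper quartile or 40.7% after median-of-ratios scaling. Their median log2 difference was 0.12. The higher value was in IBxDU for 43 of the 71 genes (60.6%), beside 66.9% of all tested genes, which is the background for the direction counts of the single lists. After upper quartile scaling these shares were 49.3% and 51.1%, and after median-of-ratios scaling 50.7% and 51.3%.

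Among 10 tested ligands, 6 had the higher value in IBxDU. GDF10, a BMP3-related growth factor, was at 0.285 to 0.770 RPKM in IB, and at 2.79 in IBxDU-402, 0.935 in IBxDU-412, 0.332 in IBxDU-426, 0.674 in IBxDU-427 and 2.01 RPKM in IBxDU-429. Its log2 difference was 1.11 ± 0.45 (SE; limma adjusted p = 0.572, exact permutation p = 0.0476). The unadjusted limma p was not under 0.05 without IB-345, IBxDU-402 or IBxDU-429. IBxDU-402 and IBxDU-429, the animals with the most TGFB1, also had the most GDF10. GDF11, the closest relative of myostatin, averaged 1.19 ± 0.609 RPKM in IB and 1.59 ± 0.514 in IBxDU (exact permutation p = 0.221). BMP5 had a log2 difference of -0.44 (exact permutation p = 0.266), and TGFB3, another TGF-beta, of 0.41 (exact permutation p = 0.281).

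Among 12 other receptors and co-receptors, 7 had the higher value in IBxDU. BMPR1B, a type I receptor of bone morphogenetic proteins, was at 1.66 to 2.67 RPKM in IB. In IBxDU it was 1.05 in IBxDU-402, 2.16 in IBxDU-412, 1.12 in IBxDU-426, 1.02 in IBxDU-427 and 1.21 RPKM in IBxDU-429, so that 4 animals lay below all IB animals. The log2 difference was -0.71 ± 0.24 (SE; limma adjusted p = 0.539, exact permutation p = 0.0195). With all animals and the settings used throughout, BMPR1B was the only tested gene of the 6 lists past the thresholds of the study given above, which 0.522% of all tested genes passed with the higher value in IB. It passed them without 2 of the 11 animals in turn and under 4 of 6 other settings. Its unadjusted limma p was under 0.05 without each of the 11 animals and under all 6 settings, and so were those of IGSF1 and NEDD4L. IGSF1 and NEDD4L each passed those thresholds under 2 of 6 other settings and without 1 animal, and GDF10 and BMP1 each without 1 animal. BAMBI, a decoy receptor that dampens the pathway, averaged 0.421 ± 0.0998 RPKM in IB and 0.662 ± 0.308 in IBxDU (exact permutation p = 0.104). RGMA, a BMP co-receptor, and BMPR1A, another BMP type I receptor, had log2 differences of -0.28 and 0.23 (exact permutation p = 0.377 and 0.342).

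Among 17 extracellular antagonists and latency proteins, 10 had the higher value in IBxDU. IGSF1, a membrane glycoprotein of the immunoglobulin superfamily, averaged 4.16 ± 2.68 RPKM in IB and 1.95 ± 0.517 in IBxDU. IB-431 held 9.51 RPKM, and the other IB animals lay between 2.07 and 3.76. The log2 difference was -0.91 (limma adjusted p = 0.55, exact permutation p = 0.0152), and without IB-431 it was -0.65. LTBP2, a matrix protein of the family named for latent TGF-beta binding, and CHRDL1, a BMP antagonist, had log2 differences of 0.75 and 0.44 (exact permutation p = 0.132 and 0.297). THBS1, a matrix protein that can release TGF-beta from its latent form, spanned 3.85 to 128 RPKM in IB, highest in IB-431, and 3.95 to 32.6 in IBxDU (exact permutation p = 0.392). IB-503 and IB-504, with 51.5 and 53.4 RPKM, also lay above every IBxDU animal. The remaining IB animals held 3.85 to 8.03 RPKM. The THBS1 log2 difference of -0.96 was -0.42 without IB-431 and -1.43 without IB-345, the extremes of leaving out 1 animal.

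Among 8 activating proteases and integrins, 6 had the higher value in IBxDU, a direction shared by 66.9% of all tested genes. BMP1, a protease that cleaves procollagen and the propeptide of latent myostatin, was at 15.4 to 22.4 RPKM in IB. In IBxDU it was 28.2 in IBxDU-402, 20.1 in IBxDU-412, 34.1 in IBxDU-426, 16.9 in IBxDU-427 and 39.9 RPKM in IBxDU-429, so that 3 animals lay above all IB animals. Before rescaling, these were also the 3 animals with pericyte and smooth muscle marker sums above every IB animal (79.7 to 94.8 RPKM, against at most 76.2 in IB). The part of these cells in the BMP1 level was not tested. The log2 difference was 0.49 ± 0.22 (SE; limma adjusted p = 0.607, exact permutation p = 0.0671). The unadjusted limma p was under 0.05 in 4 of the 11 fits that left out 1 animal, and not after either rescaling. ITGAV, an integrin subunit that takes part in TGF-beta activation, had a log2 difference of 0.25 (exact permutation p = 0.461). MMP14, a membrane-bound matrix metalloprotease, and PCSK6, a proprotein convertase, had 0.27 and 0.20 (exact permutation p = 0.565 and 0.563), and the sign of MMP14 turned without IBxDU-402.

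Among 14 other SMADs and modulators, 7 had the higher value in either genetic type. NEDD4L, a ubiquitin ligase that marks activated SMAD2 and SMAD3 for degradation, ranged from 1.52 to 3.87 RPKM in IB. In IBxDU it was 1.16 in IBxDU-402, 1.88 in IBxDU-412, 1.25 in IBxDU-426, 1.48 in IBxDU-427 and 1.41 RPKM in IBxDU-429, and 4 of these lay below all IB animals. The log2 difference was -0.69 ± 0.26 (SE; limma adjusted p = 0.562, exact permutation p = 0.0238). SMAD6, the inhibitory SMAD of the BMP branch, averaged 2.87 ± 1.22 RPKM in IB and 1.85 ± 0.484 in IBxDU (exact permutation p = 0.0974). USP15, a deubiquitinating enzyme, and TRIM33, a ubiquitin ligase, had log2 differences of 0.33 and 0.49 (exact permutation p = 0.0823 and 0.11).

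Among 11 transcriptional targets, 8 had the higher value in IBxDU, beside 66.9% of all tested genes, and none reached an unadjusted limma p under 0.05. CCN2, a matricellular protein induced by TGF-beta, averaged 39.5 ± 34.4 RPKM in IB and 23.4 ± 10.1 in IBxDU (exact permutation p = 0.327). IB-431 held 108 RPKM and the other 5 IB animals 18.4 to 36.3, and the log2 difference of -0.54 was -0.19 without IB-431. ACTA2, smooth muscle actin, averaged 122 ± 48.9 and 142 ± 41.6 RPKM (exact permutation p = 0.405). POSTN, the matrix protein periostin, averaged 37.6 ± 24.8 and 66.6 ± 55.4 RPKM (exact permutation p = 0.485), a log2 difference of 0.53 that was 0.11 without IBxDU-402. LTBP2, described above, is also a target.

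**Figure D5:**
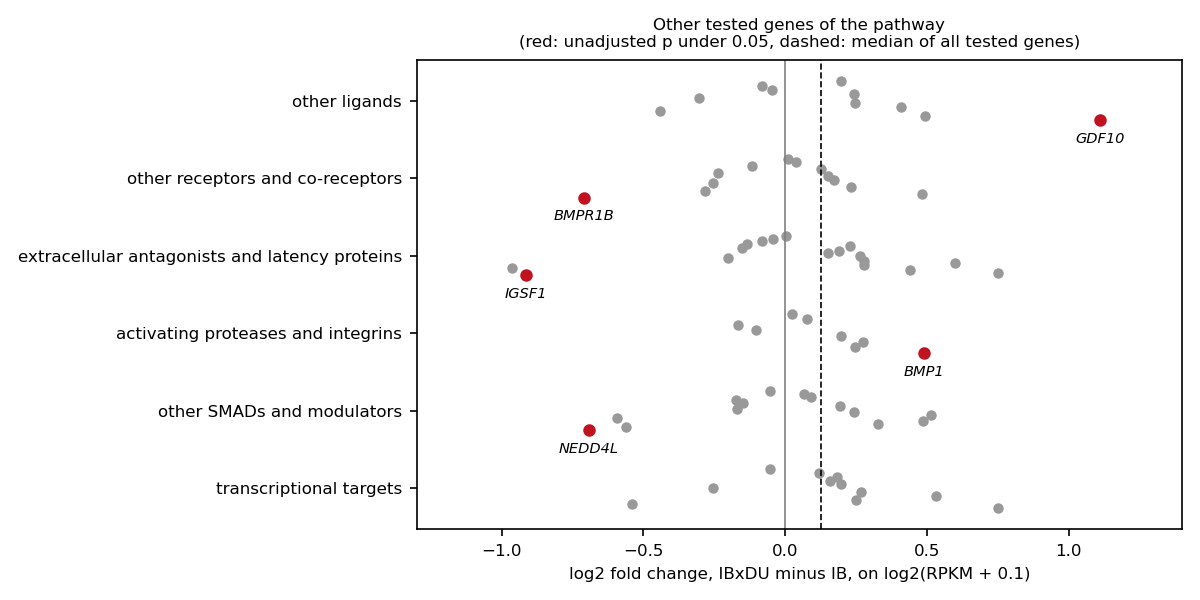
Log2 difference, IBxDU minus IB, of each tested gene of the 6 pathway lists, 1 point per gene, with genes at an unadjusted limma p under 0.05 in red and the median of all tested genes as a dashed line. GDF10 (1.11) and BMP1 (0.49) lie to the IBxDU side and BMPR1B (-0.71), IGSF1 (-0.91) and NEDD4L (-0.69) to the IB side, and no gene passed after adjustment.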

How the data were processed

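RNA of 12 Biceps femoris samples had been sequenced as paired reads of 76 bases, and 11 had values in the table used here. The authors mapped the reads to Sscrofa10.2 with CLC Bio Genomic Workbench 7.0, and their deposited table holds an RPKM value for each gene in each animal. The deposited p-value and signed fold change of their own comparison were not used. All values of 16786 of the 16953 genes above 0 (99.01%) were whole multiples of 1 read, within 0.02 reads, and gave the read numbers.

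Log2(RPKM + 0.1) was fitted with genetic type as the only effect in limma 3.58.1 (R 4.3.3, trended empirical Bayes). The 11875 genes with a mean above 0.5 RPKM in at least 1 genetic type entered, with Benjamini-Hochberg adjustment over all of them and a threshold of 0.05. Fold changes are on the log2(RPKM + 0.1) scale, which understates changes of low genes. Exact two-sided permutation tests used all 462 relabelings for differences between genetic types, all 2048 sign flips for neighbouring levels and all 720 pairings for correlations within IB, and correlations over all animals used 100000 permutations (scipy 1.17.1). The fits were tested on simulated data.

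Symbols came from a gene table that named 11450 identifiers. The identifier of SMAD3 carries the name SMAD2 in a table of the study. All members, the 4 genes of each pathway list with the smallest p, and the 4 genes most correlated with MSTN, FST, TGFB1 and SMAD7 were named by rule. The members and lists were chosen with earlier results of these data known. The alternatives were the omission of the filter, a pseudocount of 1, upper quartile and median-of-ratios scaling, limma without trend and leaving out each animal. Limma's voom on the recovered reads and the correlations with marker sums were added after the data were seen.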

Additional observations from a re-analysis of the deposited data

How the results depend on the processing

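No member and no gene of the pathway lists passed the adjusted threshold under any of 6 other settings or without any of the 11 animals, and 1 to 2 of all tested genes did. The lowest adjusted limma p of a member was 0.421 (TGFB1 without IBxDU-412). The SMAD3 difference of 0.066 was -0.055 with upper quartile and -0.054 with median-of-ratios scaling. The median of all tested genes moved from 0.128 to 0.008 and 0.009 with these scalings. Leaving out each animal gave differences of -0.12 to 0.72 for MSTN, -0.39 to 0.15 for FST, -0.30 to 0.07 for ACVR2B, -0.10 to 0.19 for SMAD3 and -0.052 to 0.49 for MMP14. The other members kept their sign, with ranges of 0.27 to 0.53 for TGFB1, 0.05 to 0.25 for ACVR2A, 0.05 to 0.36 for TGFBR2 and -0.42 to -0.06 for SMAD7. After upper quartile scaling TGFB1 was at 0.285, TGFBR2 at 0.065 and ACVR2A at 0.058. Members at an unadjusted p under 0.05 numbered 0 to 1, and pathway genes 3 (without IBxDU-429) to 7 (without IB-431), against 5 with all animals. Pairs of members past the adjusted threshold by Pearson's r numbered 0, but 1, FST and TGFBR2, after centring on the mean of the genetic type, and 0 to 1 without single animals (1 without IB-323 or IBxDU-429). No pairing within litters across the genetic types was possible, because each sow was mated to boars of a single breed. Each litter thus held a single genetic type. MSTN rests on 15 to 22 reads in 4 animals, which limits its precision there.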

Other observations

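Some genes outside the pathway followed the members closely over the 11 animals. The 4 named genes with the highest Pearson r among 8113 others are given as a description, since the highest of so many values are large by selection. Nearest to MSTN were LYSMD2 (0.932), TPCN1, an endolysosomal cation channel (0.903), KIAA0408 (0.902) and HID1 (0.9), and all 4 were lowest in IB-503, as MSTN was. Nearest to FST were MAP2K5, a kinase of the ERK5 cascade (0.952), FAP, a surface protease of activated fibroblasts (0.95), WDR62 (0.944) and MUTYH, a DNA repair glycosylase (0.942), and all 4 were highest in IBxDU-402. FAP spanned 2.11 RPKM in IBxDU-426 to 12.5 RPKM in IBxDU-402, the same animals that held the lowest and highest FST. Nearest to TGFB1 were CAP1, a regulator of actin turnover (0.975), RAB34, a small GTPase (0.975), YWHAQ, a 14-3-3 protein (0.966) and SLC41A2 (0.96), all highest in IBxDU-402. Nearest to SMAD7 were ATXN7 (0.915), PDE1C, a cyclic nucleotide phosphodiesterase (0.912), FRAS1, a basement membrane protein (0.909) and ZBTB10 (0.907), and all 4 were lowest in IBxDU-402 and highest in IB-431, as SMAD7 was.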
